A study of Mus musculus with 9 samples.

Results

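The VEGF system was examined as 9 genes chosen by name from the 55487 genes of the count table: the ligands Vegfa, Vegfb, Vegfc and Pgf, the receptor tyrosine kinases Kdr (VEGFR2), Flt1 (VEGFR1) and Flt4 (VEGFR3), and the co-receptors Nrp1 and Nrp2. All 9 were among the 16955 genes that passed the filter on low counts. The cells were MCEC, a cell line derived from the endothelium of the mouse heart, and poly-A RNA was sequenced from 9 libraries: 3 of cells labelled wild type (WT), 3 of cells with Zbtb46 knocked down (KD) and 3 of cells with Zbtb46 overexpressed (OE). Zbtb46 encodes a transcription factor with a BTB domain and zinc fingers. The labels give neither the method of knockdown or overexpression, nor the number of clones behind each line, nor a treatment; cells with a control vector were not analysed here. The labels do not say whether replicates are separate cultures, so p values measure the spread between these libraries, which may be technical.

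VEGF ligands are secreted dimers that bind receptor tyrosine kinases on endothelial cells. Vegfa binds Kdr, the main signalling receptor for endothelial growth and permeability, and Flt1, which binds it more tightly but signals weakly and can act as a decoy. Vegfb and Pgf bind Flt1 but not Kdr, whereas Vegfc and its relative Vegfd bind Flt4 and, once fully processed by proteases, Kdr as well. Flt4 is best known for the growth of lymphatic vessels. Neuropilins hold ligand and receptor together, Nrp1 mainly with Kdr and Nrp2 mainly with Flt4, and they also bind class 3 semaphorins.

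Library totals ran from 39491828 to 55745849 counts. Ribosomal RNA took 7.44% to 17.3% of the counts in WT, 9.55% to 12.0% in KD and 14.4% to 18.2% in OE. The targeted gene, Zbtb46, stood at 13.3, 14.4 and 13.2 CPM (counts scaled to library size with TMM factors) in the WT libraries, at 11.7, 11.4 and 10.6 CPM in KD and at 192, 189 and 194 CPM in OE. The groups did not overlap. In the KD libraries its mRNA fell by 17.8% (adjusted p 0.00144), and in OE it was 13.99-fold higher (adjusted p 3.22e-21, edgeR's quasi-likelihood test). The label of endothelial cells was checked against 12 markers of blood endothelium, of which 8 stayed under 1 CPM in every library: Pecam1, Cdh5, Tie1, Emcn, Erg, Vwf, Cldn5 and Robo4. Erg had 0 counts in all 9 libraries. Eng, a co-receptor for TGF-beta, was the abundant exception at 124.5 ± 6.78 CPM (SD, n = 3) in WT. The other markers that reached 1 CPM in a library were Egfl7, Tek and Esam. In WT these stood at 5.185 ± 0.459, 1.835 ± 0.114 and 0.612 ± 0.407 CPM. Of 5 lymphatic markers 4 stayed under 1 CPM, among them Prox1, with at most 1 count in a library. Of 7 fibroblast and mural genes 3 stayed under 1 CPM (Cspg4, Rgs5 and Lum), while in WT Pdgfrb stood at 3.47 ± 0.704 CPM, Pdgfra at 17.1 ± 1.56 CPM, Dcn at 98.03 ± 6.37 CPM and Col1a1 at 5259 ± 289.7 CPM. Of 5 cardiomyocyte markers 4, and of 6 leukocyte markers 5, stayed under 1 CPM. Bulk RNA cannot tell fewer cells of a type from less RNA per cell.

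Vegfc and Flt1 fell in KD and rose in OE. Kdr fell in both lines and Vegfa rose in both. Flt4, Nrp1 and Nrp2 fell in OE and Vegfb rose there, with no call in KD, and Pgf was called in neither line. At an adjusted p under 0.05 (edgeR's quasi-likelihood test, Benjamini-Hochberg adjustment over all genes tested), 1 of the 9 genes was higher in KD than in WT and 3 were lower, beside 11% and 10.4% of all tested genes. In OE 4 were higher and 4 lower than in WT, beside 17% and 19.5% of all tested genes. Counted in either direction, 4 of 9 genes were called in KD where 21.3% of all tested genes were, and 8 of 9 in OE where 36.4% were. The 3 libraries of a line did not overlap WT for 6 of the 9 genes in KD (34.7% of all tested genes) and for 9 of 9 in OE (45.1%). Between OE and KD, 5 of 9 were called (41.5% of all tested genes), 2 higher in OE (19.4%) and 3 lower (22.1%), and 6 of 9 did not overlap (55.4%). The median log2 fold change of the 9 genes was -0.13 in KD and -0.24 in OE, and their median absolute change was 0.45 and 0.40, beside 0.16 and 0.22 for all tested genes. With scaling by library totals alone, 35.8% of all calls in KD and 31.6% in OE were higher, against 51.4% and 46.5% with TMM. KD and OE were each compared with the same WT libraries, so the 2 comparisons are not independent.

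Summed marker levels differed between the groups. The summed level of the 12 blood endothelial markers, mostly Eng, was 127 to 140 CPM in WT, 112 to 117 CPM in KD and 85.6 to 92.6 CPM in OE. That of the 7 fibroblast and mural genes, mostly Col1a1, was 5112 to 5679 CPM, 4850 to 4914 CPM and 4041 to 4134 CPM in the same order. The 5 lymphatic markers, mostly Pdpn, summed to between 85.4 and 90.2 CPM in WT, 96.3 and 106.7 CPM in KD, and 83.4 and 88.3 CPM in OE. The 5 cardiomyocyte markers summed to 0.420 to 0.761 CPM in WT, 0.594 to 1.05 CPM in KD and 0.949 to 1.41 CPM in OE, so that OE lay above WT. The 6 leukocyte markers summed to 3.82 to 4.03 CPM in WT, 4.75 to 5.10 CPM in KD, above WT, and 2.82 to 4.22 CPM in OE. The part of these shifts in the changes of the VEGF genes was not tested.

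**Figure D1:**
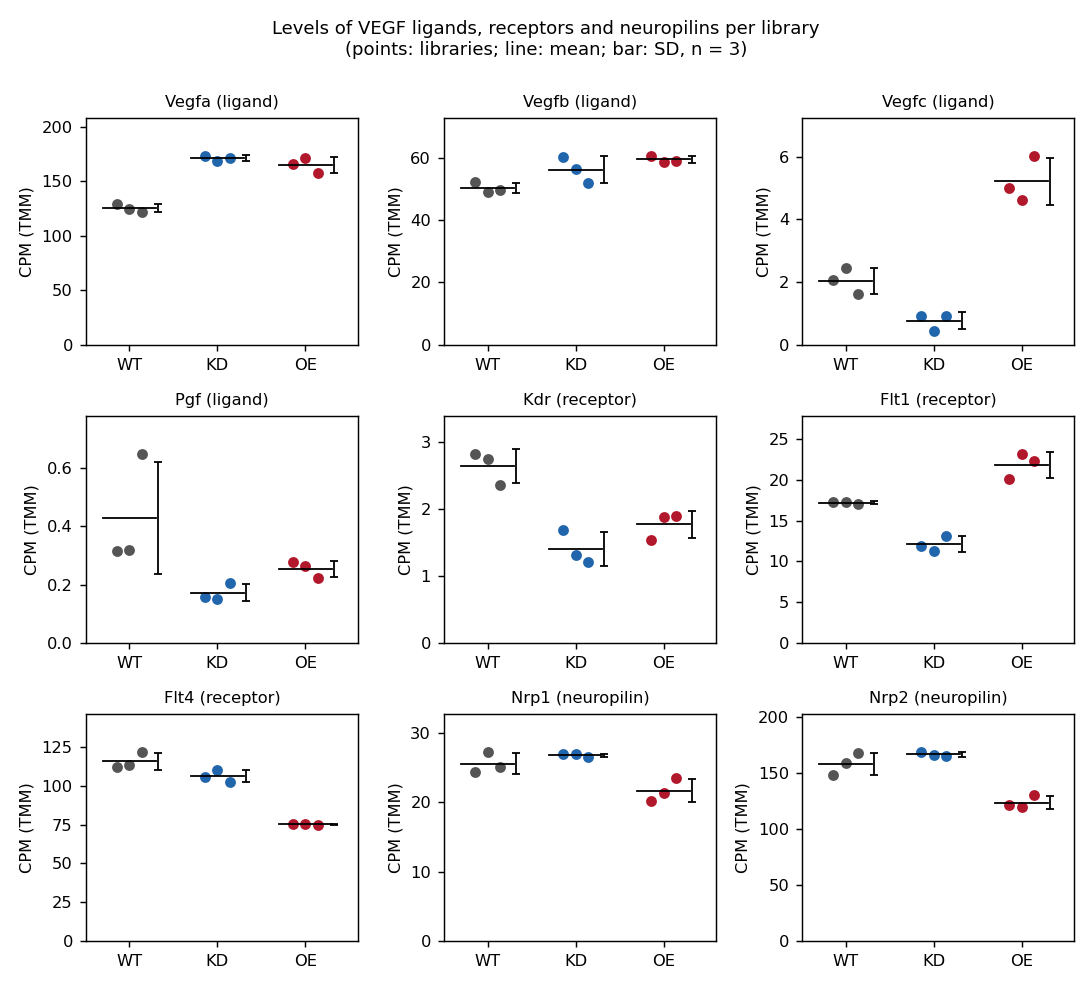
Level of each of the 9 genes in every library, in CPM scaled by TMM, with the mean and SD of 3 libraries per group; each vertical axis starts at 0. Vegfc and Flt1 run from KD through WT to OE without overlap, while Flt4 and Nrp2 lie lowest in OE.

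The start regions of 3 genes are shown because their mRNAs moved so differently: Vegfc and Flt1, which fell in KD and rose in OE, and Kdr, which fell in both. RefSeq start sites on GRCm38.p6 were found for all 9 genes, and the 250 bases before the start are printed 5′ to 3′ on the strand of the gene, from chr8:54077282-54077531 (plus strand), chr5:147726012-147726261 (minus strand) and chr5:75978456-75978705 (minus strand). Capitals mark GC boxes (GGGCGG, bound by SP factors) and ETS sites (CCGGAA) on either strand. A GC box on the other strand reads CCGCCC here, and the ETS match of Kdr reads TTCCGG.
Vegfc: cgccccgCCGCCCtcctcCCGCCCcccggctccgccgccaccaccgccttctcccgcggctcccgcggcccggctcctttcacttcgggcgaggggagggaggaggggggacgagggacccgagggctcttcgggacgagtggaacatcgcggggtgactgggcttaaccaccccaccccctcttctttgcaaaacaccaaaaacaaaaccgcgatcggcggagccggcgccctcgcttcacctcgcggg
Flt1: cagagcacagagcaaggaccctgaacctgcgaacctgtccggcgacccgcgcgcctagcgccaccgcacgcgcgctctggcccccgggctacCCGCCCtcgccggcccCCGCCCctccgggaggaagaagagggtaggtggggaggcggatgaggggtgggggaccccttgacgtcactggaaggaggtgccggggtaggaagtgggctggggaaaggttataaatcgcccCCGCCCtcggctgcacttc
Kdr: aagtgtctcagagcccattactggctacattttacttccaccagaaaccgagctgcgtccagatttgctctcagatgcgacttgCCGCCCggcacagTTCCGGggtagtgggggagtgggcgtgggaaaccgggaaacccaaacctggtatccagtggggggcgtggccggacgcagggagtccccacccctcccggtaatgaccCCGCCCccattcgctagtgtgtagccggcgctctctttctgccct

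The 9 genes have 11 start regions in RefSeq, since Vegfa and Pgf have 2 each. A GC box lay in 10 of the 11 regions, all but the second of Pgf, and in 32.7% of all 32851 RefSeq start regions of the same length. The ETS letters lay in 1 of the 11, that of Kdr, and in 12.0% of all start regions. The core of the hypoxia response element (ACGTG, either strand) was found in 1 of the 11, the second of Vegfa, and in 16.6% of all start regions. That second region lies within the Vegfa gene, from 46025164 to 46025413, and the first region of Vegfa had 0 matches to this core. The printed windows of Vegfc and Flt1 held 2 and 3 GC boxes and 0 of the other letters, and that of Kdr held 2 GC boxes and 1 ETS match. Only the exact letters given were searched, so other forms of these sites were neither marked nor counted. A match of letters is a description of the sequence and not a measured binding site.

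Among the ligands, Vegfa, the main angiogenic factor of the family, was abundant and higher in both the KD and OE lines. It lies on chromosome 17 from 46016993 to 46032369 (minus strand, GRCm38). Its levels were 129, 124 and 122 CPM in the WT libraries, 173, 168 and 171 CPM in KD, and 166, 172 and 158 CPM in OE. Every library of either line lay above every WT library. The rise was 36.4% in KD, a log2 fold change of 0.45 (SE 0.028), and 31.7% in OE (0.40, SE 0.043), with adjusted p values of 2.01e-07 and 2.56e-07 in edgeR's test. OE and KD overlapped, and their difference was -0.05 on the log2 scale (SE 0.038, adjusted p 0.373 in edgeR's test).

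Vegfb, a ligand of Flt1 linked to fatty acid uptake and cell survival, lies on chromosome 19 from 6982473 to 6987651 (minus strand) and changed little. It stood at 52.1, 49.0 and 49.7 CPM in WT, at 60.3, 56.2 and 51.7 CPM in KD, and at 60.6, 58.6 and 59.0 CPM in OE. KD replicate 3 lay within the range of WT, and all OE libraries lay above it. The log2 difference was 0.24 in OE (SE 0.030, adjusted p 0.00181 in edgeR's test) and 0.16 in KD (SE 0.069, adjusted p 0.0511). The KD value sat at the edge of the threshold and passed it under 5 of 10 alternative settings (adjusted p 0.00842 to 0.304).

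The largest change of any ligand was that of Vegfc, the lymphangiogenic ligand of Flt4, on chromosome 8 from 54077606 to 54187096 (plus strand). It had 79, 145 and 72 counts in the WT libraries (2.08, 2.44 and 1.61 CPM), 47, 18 and 45 counts in KD (0.934, 0.452 and 0.922 CPM) and 234, 228 and 271 counts in OE (4.99, 4.604 and 6.02 CPM). No library of one group overlapped another group, and the order was KD, WT, OE. In KD Vegfc mRNA fell by 61.8% (log2 fold change -1.39, SE 0.37, adjusted p 0.000278 in edgeR's test). In OE it was 2.53-fold higher than in WT (1.34, SE 0.20, adjusted p 2.80e-05). OE exceeded KD 6.63-fold (2.73, SE 0.34, adjusted p 4.71e-09). The 67 other tested genes in its 20 Mb window had a median log2 change of 0.13 in OE, and Vegfc had the largest rise there.

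Pgf, the placental ligand of Flt1, on chromosome 12 from 85166635 to 85177790 (minus strand), was near the limit of detection. It had 12, 19 and 29 counts in WT, 8, 6 and 10 in KD, and 13, 13 and 10 in OE. The filter threshold of 0.21 CPM was met by the 3 WT and 3 OE libraries and by 0 KD libraries. WT replicate 3 stood at 0.649 CPM, apart from the other WT libraries at 0.316 and 0.319 CPM, and all KD and OE libraries lay below these. The log2 differences against WT were -1.30 in KD (SE 0.33, adjusted p 0.0775) and -0.74 in OE (SE 0.32, adjusted p 0.257), neither past the threshold of edgeR's test. Vegfd, the relative of Vegfc and not one of the 9 genes, stood at 6.79 ± 0.155 CPM in WT, 6.78 ± 0.791 in KD and 4.68 ± 0.590 in OE. It fell in OE by 0.54 on the log2 scale (SE 0.11, adjusted p 0.00241), opposite to Vegfc.

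Among the receptors, Kdr, the principal signalling receptor of blood endothelium, was scarce in all groups. It lies on chromosome 5 from 75932827 to 75978458 (minus strand). WT libraries held 107, 163 and 105 counts (2.82, 2.74 and 2.35 CPM), KD libraries 85, 52 and 59 counts (1.69, 1.31 and 1.21 CPM) and OE libraries 72, 93 and 85 counts (1.53, 1.88 and 1.89 CPM). All 6 KD and OE libraries lay below the 3 WT libraries, and KD and OE overlapped. Kdr mRNA fell by 46.7% in KD (log2 fold change -0.91, SE 0.16, adjusted p 0.00261 in edgeR's test) and fell by 32.9% in OE (-0.58, SE 0.13, adjusted p 0.0276). The OE call was lost without WT replicate 1 (adjusted p 0.0786), WT replicate 2 (0.0616) or OE replicate 1 (0.113), and the range without each library in turn was 0.0209 to 0.113.

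Flt1, the tight-binding receptor of Vegfa, Vegfb and Pgf, changed in opposite directions in the 2 lines. It lies on chromosome 5 from 147561604 to 147726011 (minus strand). It stood at 17.3, 17.3 and 17.0 CPM in WT, at 11.9, 11.2 and 13.1 CPM in KD, and at 20.1, 23.2 and 22.3 CPM in OE. The 3 groups did not overlap. Flt1 mRNA fell by 29.7% in KD (log2 fold change -0.51, SE 0.067, adjusted p 0.000109 in edgeR's test) and rose by 27.1% in OE (0.35, SE 0.062, adjusted p 0.00151). OE exceeded KD 1.81-fold (0.85, SE 0.090, adjusted p 2.18e-08). Gene counts sum all splice forms, so soluble and membrane forms of Flt1, like the splice forms of Vegfa, cannot be told apart.

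Flt4, the receptor of Vegfc and Vegfd, was the most abundant of the receptors. It lies on chromosome 11 from 49609263 to 49652739 (plus strand). Levels were 112, 114 and 122 CPM in WT, 106, 111 and 103 CPM in KD, and 75.8, 75.4 and 75.1 CPM in OE. The OE libraries lay close together and far below all others. From WT to OE, Flt4 fell by 35.0% (log2 fold change -0.62, SE 0.039, adjusted p 1.06e-09 in edgeR's test), and from KD to OE it fell by 29.1% (-0.50, SE 0.031, adjusted p 1.83e-08). In KD the groups did not overlap but the difference of -0.13 (SE 0.049) missed the threshold at an adjusted p of 0.0580. It passed with at least 10 counts required in every library and without WT replicate 1 or WT replicate 2 (adjusted p 0.0252 to 0.243 over the libraries left out).

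**Figure D2:**
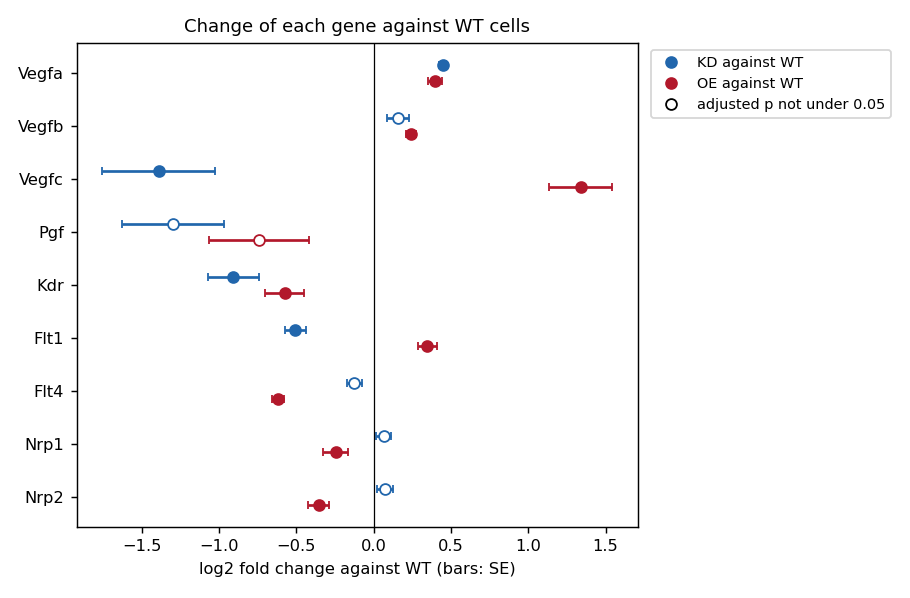
Log2 fold change of each gene against WT in KD (blue) and OE (red), with the standard error; filled points have an adjusted p under 0.05. Vegfc and Flt1 lie on opposite sides of 0 in the 2 lines, Vegfa lies on the right in both and Kdr on the left in both.

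The neuropilins were called in OE only, and the difference between OE and KD was itself tested. Nrp2, the partner of Flt4, lies on chromosome 1 from 62703285 to 62818695 (plus strand). It stood at 148, 158 and 168 CPM in WT, at 169, 166 and 165 CPM in KD, and at 121, 119 and 130 CPM in OE. The OE libraries lay below all 6 others, and the KD libraries overlapped WT. From WT to OE, Nrp2 fell by 21.9% (log2 fold change -0.36, SE 0.065, adjusted p 5.30e-06 in edgeR's test), and from KD to OE it fell by 25.8% (-0.43, SE 0.040, adjusted p 2.75e-07). In KD the log2 difference from WT was 0.07 (SE 0.054, adjusted p 0.321).

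Nrp1, the partner of Kdr, lies near the end of chromosome 8, from 128358604 to 128503363 (plus strand). Its levels were 24.4, 27.3 and 25.1 CPM in WT, 27.0, 27.0 and 26.6 CPM in KD, and 20.2, 21.3 and 23.5 CPM in OE. The OE libraries lay below the rest, with OE replicate 3 closest to WT. The log2 change in OE was -0.24 against WT (SE 0.080, adjusted p 0.00872 in edgeR's test) and -0.31 against KD (SE 0.064, adjusted p 0.00109). Against WT the adjusted p was 0.0660 without OE replicate 1 (0.00378 to 0.0660 over the libraries left out). The KD difference from WT was 0.07 (SE 0.049, adjusted p 0.578).

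The OE value of Nrp1 depended on how its region was treated. The 104 other tested genes of its 20 Mb window had a median log2 change of -0.45 in OE and 0.03 in KD, and 63 of them were called lower in OE. With window medians removed, Nrp1 turned to 0.20 in OE against WT (adjusted p 0.0356 in edgeR's test) and to 0.17 against KD (adjusted p 0.0671). The shift was not even along the window. Genes that start 2 to 5 Mb before Nrp1 had a median of -0.54 (32 genes), and those 5 to 10 Mb before it -0.50 (73 genes). The 14 genes within 2 Mb of it had a median of 0.15, with 1 called lower and 3 higher. The other 8 genes had window medians between -0.05 and 0.13 in OE.

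**Figure D3:**
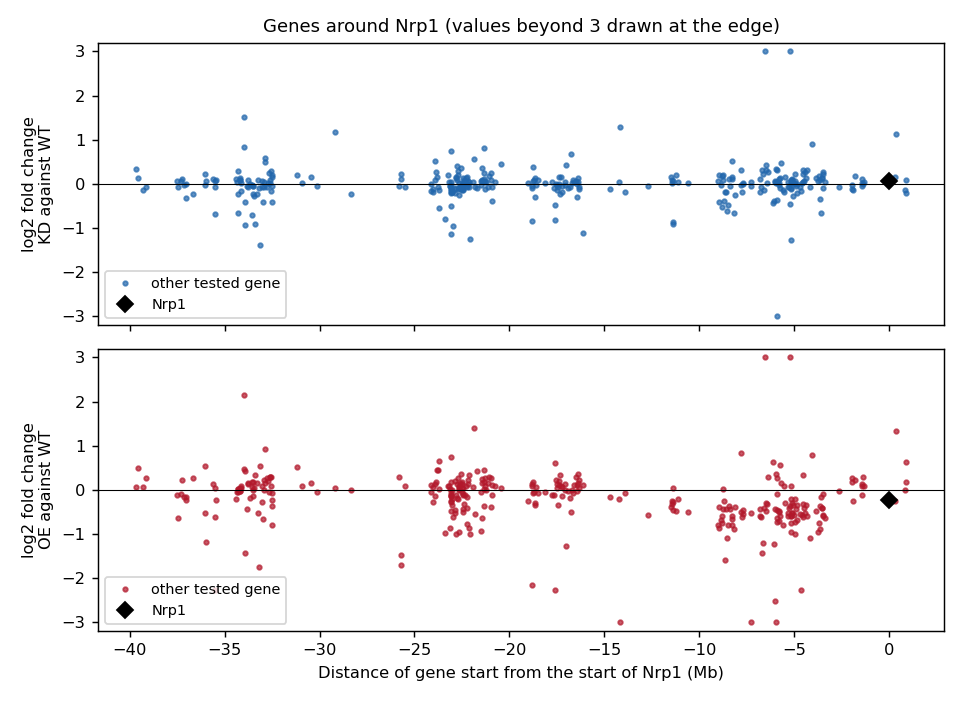
Log2 fold change of the tested genes around Nrp1 on chromosome 8 by distance of their start from that of Nrp1, for KD (top) and OE (bottom). In OE the genes between 2 and 10 Mb before Nrp1 lie mostly below 0, while those nearest to it do not.

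Levels of different genes were compared per length, as CPM per kb of exon, taking the union of all annotated exons of a gene. This union is at least as long as any single splice form, and other lengths were not tried. Overlap between libraries does not cover that choice, so close ranks may depend on it. In WT the order was Vegfb (31.3 ± 1.012 CPM per kb, SD, n = 3), Vegfa (29.2 ± 0.867), Flt4 (14.1 ± 0.657), Nrp2 (13.3 ± 0.844), Nrp1 (2.62 ± 0.155), Flt1 (1.27 ± 0.0145), Vegfc (0.834 ± 0.169), Kdr (0.292 ± 0.0279) and Pgf (0.147 ± 0.0658). The only neighbours whose WT libraries overlapped were Flt4 and Nrp2. In KD Vegfa (39.9 ± 0.610 CPM per kb) stood above Vegfb (34.9 ± 2.66), and Vegfc (0.314 ± 0.112) overlapped Kdr (0.155 ± 0.0281). In OE Vegfa and Vegfb overlapped, and Vegfc (2.13 ± 0.300 CPM per kb) stood above Flt1 (1.62 ± 0.117) and overlapped Nrp1 (2.21 ± 0.171).

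Flt4 made up most of the receptor mRNA in every group. Per length it held 90.0% ± 0.648 (SD, n = 3) of the sum of Kdr, Flt1 and Flt4 in WT, 92.5% ± 0.699 in KD and 83.5% ± 1.11 in OE. Flt1 held 8.15% ± 0.401 of that sum in WT, 6.42% ± 0.704 in KD and 14.7% ± 0.933 in OE. Kdr held 1.87% ± 0.247, 1.11% ± 0.201 and 1.78% ± 0.190. Flt1 stood 4.39 ± 0.391 times above Kdr in WT, 5.91 ± 1.29 times in KD and 8.31 ± 0.440 times in OE, with the OE libraries (7.89 to 8.77) above all others. Nrp2 held 83.6% ± 1.013 of neuropilin mRNA in WT, 83.7% ± 0.132 in KD and 82.5% ± 0.594 in OE. Vegfc made up, as a share of the 4 ligands, 1.36% ± 0.275 in WT, 0.417% ± 0.148 in KD and 2.74% ± 0.438 in OE. All these shares restate the levels above and were not tested.

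**Figure D4:**
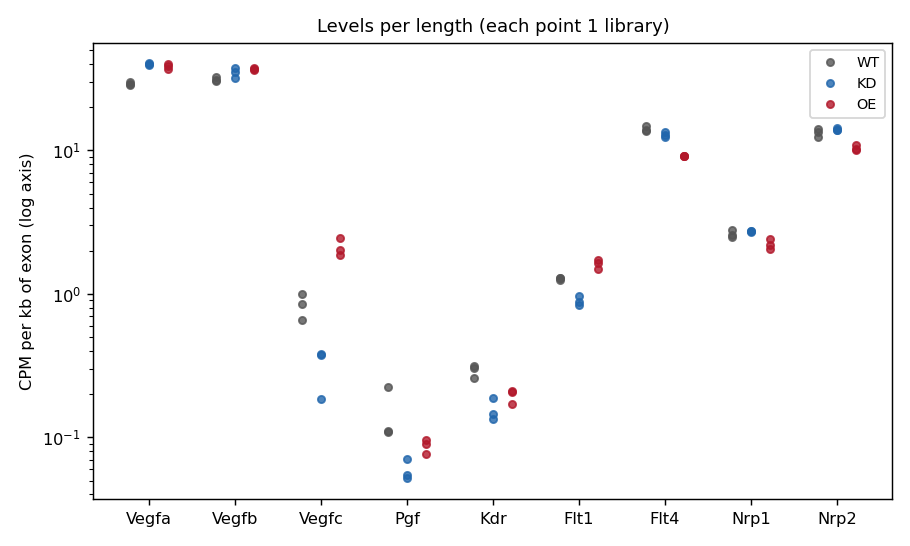
Level of each gene per kb of exon on a log axis, each point 1 library. Vegfa and Vegfb lie highest and Pgf lowest in all groups, and Kdr lies next above Pgf, overlapping Vegfc in KD.

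Genes around the VEGF system were described by 6 lists, each read against all tested genes, whose median log2 change was -0.0022 in KD and 0.0020 in OE. The first holds 12 genes that process ligands or bind them outside the cell, of which 11 were tested. In KD 2 were higher and 1 lower than in WT: the proteoglycan Sdc2 (log2 fold change 0.29, SE 0.044), the matrix protein Ccn2, which binds VEGF (0.21, SE 0.076), and the protease Furin, which cleaves the Vegfc precursor (-0.28, SE 0.039). In OE 2 were higher and 8 lower, which is 90.9% of the tested list genes beside 36.4% of all tested genes. In KD the share was 27.3% beside 21.3%. The list median was -0.02 in KD and -0.54 in OE. Among list genes with at least 5 CPM in a group, the largest falls were those of the convertase Pcsk5 (-1.06, SE 0.053), Ccn2 (-0.87, SE 0.087) and Adamts3, the protease that activates Vegfc (-0.75, SE 0.13). Adamts3, Pcsk5 and Furin (-0.38, SE 0.037) were lower in the same OE libraries in which Vegfc was higher. Ccbe1, which Adamts3 needs for this cleavage, had at most 4 counts in a library and was not tested.

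The list of 20 receptor partners, trafficking proteins and phosphatases had 18 tested genes, with Cdh5 and Emcn left out at no more than 7 counts. In KD 7 were higher and 1 lower, and in OE 0 were higher and 10 lower, with list medians of 0.09 and -0.18. These calls are 44.4% of the tested list genes in KD and 55.6% in OE, beside 21.3% and 36.4% of all tested genes. Ptprb, the phosphatase VE-PTP that restrains Kdr and Tie2 signalling, stood at 11.1 ± 0.226 CPM in WT, rose to 19.6 ± 2.03 CPM in KD (log2 fold change 0.82, SE 0.090) and fell to 3.09 ± 0.508 CPM in OE (-1.85, SE 0.14). Cav1, the scaffold of caveolae, moved the same way, by 0.48 in KD (SE 0.038) and -0.50 in OE (SE 0.053). Itgav, an integrin subunit, rose in KD (0.28, SE 0.12), while Ptprj, a phosphatase of Kdr (-0.69, SE 0.055), and Myo6, a motor of receptor endocytosis (-0.56, SE 0.10), fell in OE. Ptprj also rose in KD (0.17, SE 0.051).

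Of 33 signalling genes below the receptors 31 were tested. In KD 5 were higher and 8 lower, in OE 7 higher and 9 lower, and the list medians were 0.05 and 0.03. The shares called were 41.9% and 51.6%, beside the same 21.3% and 36.4% over all tested genes. Prkd1, protein kinase D, which phosphorylates class II histone deacetylases after VEGF, had 2.98 ± 0.601 CPM in WT, 0 counts in every KD library (at least 45.7-fold lower, with KD set at 3 counts per library) and 11.4 ± 1.48 CPM in OE (log2 fold change 1.94, SE 0.21). Hspb1, the small heat shock protein that p38 signalling acts on, fell in KD (-0.68, SE 0.12) and rose in OE (1.08, SE 0.023). Src fell in KD (-0.40, SE 0.022), and the adaptor Gab1 fell in OE (-0.61, SE 0.074). Nos3, the endothelial nitric oxide synthase, stayed under 1 CPM on average in all 3 groups and was not called against WT.

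Among 23 genes known to be induced by VEGF in endothelium, 18 were tested; Dll4, Esm1, Cxcr4, Nrarp and Sele had at most 6 counts in a library. In KD 5 were higher and 5 lower, and in OE 3 were higher and 4 lower, with list medians of -0.04 and -0.12. The share called was 55.6% in KD beside 21.3% of all tested genes, and in OE 38.9%, close to the 36.4% of all tested genes. The immediate-early gene Egr1 stood at 41.6 ± 8.37 CPM in WT and fell to 16.0 ± 1.28 CPM in KD (log2 fold change -1.38, SE 0.18), and the nuclear receptor Nr4a1 fell by 0.75 (SE 0.15). In OE Egr1 stood at 31.3 ± 8.49 CPM (-0.41, SE 0.28, adjusted p 0.208 in edgeR's test). The adhesion molecule Vcam1 fell in OE from 72.7 ± 5.997 to 24.6 ± 1.06 CPM (-1.57, SE 0.076) and the scaffold Akap12 by 0.73 (SE 0.040). Akap12 rose in KD (0.15, SE 0.039). Icam1 rose in KD (0.45, SE 0.038) and fell in OE (-0.88, SE 0.077), where its window had a median of -0.35.

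The list of 30 regulators of ligand and receptor expression had 23 tested genes, since Etv2, Erg, Foxc2, Sox7, Sox17, Sox18 and Prox1 had at most 6 counts in a library. In KD 3 were higher and 5 lower, in OE 5 higher and 10 lower, and the list medians were -0.01 and -0.09. Called genes made up 34.8% of the tested list in KD and 65.2% in OE, beside 21.3% and 36.4% of all tested genes. Zfp36, whose protein destabilises Vegfa mRNA, fell by 0.54 in KD (SE 0.078) and by 0.56 in OE (SE 0.13), and its relative Zfp36l1 fell by 0.40 (SE 0.094) and 0.48 (SE 0.094), in the same 6 libraries in which Vegfa was higher. Epas1 (HIF-2 alpha), a hypoxia factor of endothelium, fell in KD (-0.28, SE 0.062) and rose in OE (0.25, SE 0.059). Hif1a fell by 0.19 in OE (SE 0.078), where Egln3, a hypoxia-induced prolyl hydroxylase, rose by 0.84 (SE 0.085). Foxc1, a forkhead factor of vessel development, fell in OE from 65.6 ± 1.207 to 17.1 ± 0.828 CPM (-1.94, SE 0.043). Below 5 CPM, Tal1 averaged 4.45 ± 0.523 CPM in WT and had at most 6 counts in a KD library and 9 in an OE library. Its log2 fold change was -6.05 in KD (SE 0.39) and -5.27 in OE (SE 0.56). Fli1 averaged 0.376 ± 0.117 CPM in WT, had 0 counts in every OE library and was not called in KD. Whether these genes act on the VEGF genes here was not tested.

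The list of class 3 semaphorins, most of which bind the neuropilins that VEGF also binds, and of their plexins had 12 genes, all tested. In KD 4 were higher and 5 lower (75% of the list beside 21.3% of all tested genes), with a list median of 0.03. In OE 0 were higher and 11 lower (91.7% of the list beside 36.4% of all tested genes), with a list median of -0.61, in the libraries in which both neuropilins were lower. Plxnd1, the endothelial plexin for Sema3e, stood at 89.1 ± 5.29 CPM in WT and fell to 37.8 ± 1.32 CPM in OE (-1.24, SE 0.057). It also fell in KD, to 72.1 ± 2.93 CPM (-0.30, SE 0.060). Sema3d rose in KD (0.48, SE 0.11) and fell in OE (-0.99, SE 0.10), as did Plxna2 (0.61, SE 0.058, and -1.23, SE 0.10). Sema3c fell in both lines (-0.59, SE 0.075, in KD and -0.82, SE 0.074, in OE).

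**Figure D5:**
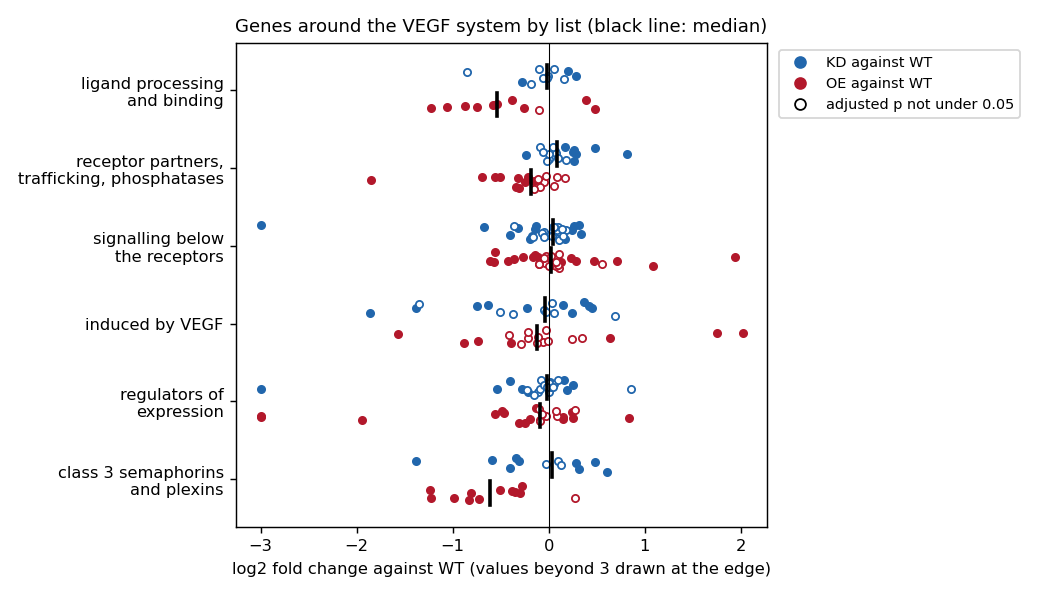
Log2 fold changes against WT of the tested genes of the 6 lists in KD (blue) and OE (red), 1 point per gene, filled where the adjusted p was under 0.05, with list medians as black lines. In OE the semaphorin and plexin list and the ligand processing list lie mostly to the left of 0.

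For each gene, the genes most like it over the 9 libraries were sought among 9706 genes that averaged 5 CPM or more, by the root mean square difference of log2 CPM values centred on each gene's own mean. Nearest to Vegfa were Ccdc134 (0.064) and Atp2a2 (0.065), the calcium pump of the endoplasmic reticulum. Nearest to Vegfc were Adamts2 (0.25) and Sec16b (0.32), and nearest to Flt1 were Arhgef19 (0.071) and Hdac1 (0.080). Kdr lay closest to Fam131b (0.17) and Fcho1 (0.18), Flt4 to Aldh7a1 (0.031) and H2ax (0.035), and Nrp2 to Ss18 (0.024) and Slc10a7 (0.031). For Nrp1 they were Fam126a (0.034) and Ado (0.044), for Vegfb Prmt9 (0.044) and Ube2v2 (0.046), and for Pgf Ypel3 (0.26) and Fbxo2 (0.28). The spread of the VEGF gene itself on this scale, for comparison, was 1.17 for Vegfc, 0.52 for Pgf, 0.40 for Kdr and 0.36 for Flt1. It was 0.27 for Flt4, 0.20 for Vegfa and for Nrp2, 0.15 for Nrp1 and 0.11 for Vegfb. A small distance says less where this spread is small.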

How the data were processed

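Poly-A RNA was sequenced as paired reads of 150 bases, per the labels' protocols, and mapped to GRCm38 (mm10), per the submitters' processing notes. The deposited table gives raw counts, which are whole numbers, for each gene in each library; the aligner, the counter and the use of strand are not given in the sources used here. Its 55774 rows name 55487 genes, because 168 genes stand on several rows with identical counts. Columns were matched to samples by title. No exon of another gene with counts overlapped an exon of the 9 genes; 2 genes in introns of Nrp2 hold 0.0063% and 0.097% of its counts.

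The analysis used R 4.3.3 with edgeR 4.0.16 (alternatives: DESeq2 1.42.0, limma 3.58.1) and Python 3.11.15. Genes kept by filterByExpr (10 counts at the median library, in 3 libraries) were scaled by TMM and fitted together, all 9 libraries in 1 robust quasi-likelihood model with a term for group and no other. Benjamini-Hochberg adjusted p values cover all 16955 genes. Standard errors (SE) combine the SDs of log2 CPM in both groups, computed with a prior count of 2. The members and lists were chosen with earlier results of these data known. Named list genes were, per list and comparison with WT, the 3 largest changes past the threshold with at least 5 CPM in a group. Vegfd, Ccbe1, Nos3, Hif1a, Tal1 and Fli1 were named after their values were seen. Gene positions and exon lengths are from GENCODE M21, start regions from RefSeq.

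In simulated counts for KD against WT (16583 genes), the procedure recovered 98.3% of 59 genes changed 2-fold and 87.1% of 62 changed by 0.5 on the log2 scale at 3 CPM or more, but 20.5% of 39 and 0% of 32 below 3 CPM. Of the 128 genes called there, 6.25% were unchanged. Only the genes just counted were changed in the simulation, whereas in the data 3617 genes were called in KD. With fewer calls the adjusted threshold is stricter, so recovery in the data may differ. Each replicate pair differed by more than sampling noise (median chi-square per gene 3.01 to 11.2 times that of sampling). The WT pairs differed most, at 8.17 to 11.2 times, beside 3.01 to 3.91 times in KD and 3.05 to 5.54 times in OE.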

Additional observations from a re-analysis of the deposited data

How the results depend on the processing

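Each comparison of the 9 genes was recomputed with DESeq2 size factors, library totals, no filter beyond 1 count, at least 10 counts in every library (which left Pgf untested), DESeq2, limma-voom, only the 2 groups compared, a replicate block, 20 Mb window medians removed, ribosomal RNA rows left out, and each of the 9 libraries left out. Of 510 values, 493 kept their direction and side of the threshold, 10 gained a call and 5 lost it. Reversed were Nrp1 in OE against WT (0.20) and against KD (0.17), both with window medians removed. Vegfb in OE lost its call with library totals (0.18, adjusted p 0.0641). The number of the 9 genes called ranged from 4 to 6 in KD against WT, 6 to 8 in OE against WT and 4 to 5 in OE against KD. Over all genes, 2473 to 4699, 5129 to 6440 and 6019 to 8138 were called.

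Library totals moved the median of all genes by -0.036 in KD and -0.062 in OE; none of the 9 genes changed direction under it. Same-numbered libraries had correlations between -0.042 and 0.049 in their deviations from the group means. Of 9 libraries, 1 correlated best with its own number. The labels do not say whether same-numbered libraries share a culture or a batch. With the replicate block 3574 genes were called in KD, 6111 in OE and 6969 in OE against KD, and of the 9 genes 5, 8 and 5, Vegfb in KD being added (0.16, adjusted p 0.0473). Below 3 CPM, where Vegfc, Kdr and Pgf lay in WT, 20.5% of simulated 2-fold changes were called. The simulation had fewer calls and so a stricter threshold than the data, where this share may differ. A missed call such as that of Pgf does not show that levels were alike.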
